A study of Mus musculus with 9 samples.

Results

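Prostaglandins and leukotrienes are short-lived lipid mediators made from arachidonic acid, and 10 genes for the enzymes and receptors that make and sense them were followed in wound myeloid cells. They were Ptgs1, Ptgs2, Ptges, Ptger2, Ptger4, Alox5, Alox5ap, Alox15, Ltc4s and Lta4h, chosen by symbol with earlier results of these data known. Each gene was read from its probe set with the highest mean among those assigned to a single symbol, and 9 of the 10 could be measured among 22180 genes on the arrays. Ptgs1, the constitutive cyclooxygenase, was not analysed here.

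The donors were C57BL/6J mice, male and 8 weeks old, and the plantar hindpaw was taken 24 h after an incision. They were sorted as CD11b+Ly6G- cells, that is, cells with an integrin chain of myeloid cells and without a neutrophil surface protein, and then divided by surface Ly6C into high, medium and low gates. There were 3 arrays per gate and 9 in all, each with amplified RNA, and all cells were collected on 1 day. Newly recruited monocytes carry much Ly6C, and macrophages or dendritic cells of the tissue often carry little. All 3 gates came from wounded paws, and no unwounded tissue was measured. Whether animals were pooled, and whether the replicates of a gate came from separate animals, is not stated in the labels, so each p-value reflects only how far these arrays scatter, and that scatter may be technical.

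In this pathway, cyclooxygenases convert arachidonic acid to prostaglandin H, and terminal synthases turn that into prostaglandin E2, prostaglandin D2, prostacyclin or thromboxane. In the other branch, 5-lipoxygenase and its activating protein make leukotriene A4, which Lta4h turns into leukotriene B4, an attractant of neutrophils, and Ltc4s into leukotriene C4, the first cysteinyl leukotriene. In wounds the prostaglandin branch is known for swelling and pain, and leukotrienes for drawing in leukocytes and raising vascular permeability.

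The arrays were comparable in scale, with medians of 3.93 to 4.10 on the log2 scale. Ly6c2, the transcript of the sorted protein, followed the labels and lay at 12.08 to 12.48 on the high arrays, 11.20 to 11.27 on the medium arrays and 7.69 to 9.40 on the low arrays. Low replicate 3 was the array at 9.40 and stood nearest to the other gates. Itgam, which encodes CD11b, averaged 11.02 in high and 10.58 in low (limma adjusted p = 0.0579), and Ly6g 3.02 and 3.58 (limma adjusted p = 0.591). In bulk RNA such as this, fewer cells of a type and less RNA per cell cannot be told apart.

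RefSeq promoter windows of build GRCm38.p6 were found for 8 of the 10 genes, and Alox15 and Alox5ap had none. The 250 bases before the annotated start are shown for the 2 genes with the largest rises in Ly6C low among those with a window, for Ptger2, which fell there, and for Ptgs2, the inducible cyclooxygenase, which did not pass. They lie at chr6:116461179-116461428 on the minus strand (Alox5), chr11:50238533-50238782 on the minus strand (Ltc4s), chr14:44987861-44988110 on the plus strand (Ptger2) and chr1:150099781-150100030 on the plus strand (Ptgs2). Each is written 5′ to 3′ on its gene's strand, with capitals for the letters GGGCGG (a GC box) and GAGGAA (a core of sites for the myeloid factor PU.1).
Alox5: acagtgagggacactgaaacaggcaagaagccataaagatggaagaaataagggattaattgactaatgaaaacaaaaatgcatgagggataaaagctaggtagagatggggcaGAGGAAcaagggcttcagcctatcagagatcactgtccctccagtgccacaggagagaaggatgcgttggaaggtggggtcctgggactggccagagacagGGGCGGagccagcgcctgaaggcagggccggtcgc
Ltc4s: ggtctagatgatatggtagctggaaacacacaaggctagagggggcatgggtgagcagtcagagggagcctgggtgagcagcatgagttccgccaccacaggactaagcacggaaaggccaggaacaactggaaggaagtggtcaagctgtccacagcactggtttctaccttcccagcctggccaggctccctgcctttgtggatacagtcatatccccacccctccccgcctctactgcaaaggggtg
Ptger2: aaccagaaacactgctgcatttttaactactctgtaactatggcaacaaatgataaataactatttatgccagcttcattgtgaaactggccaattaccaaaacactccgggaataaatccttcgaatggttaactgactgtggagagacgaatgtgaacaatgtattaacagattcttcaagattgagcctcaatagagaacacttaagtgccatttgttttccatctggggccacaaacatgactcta
Ptgs2: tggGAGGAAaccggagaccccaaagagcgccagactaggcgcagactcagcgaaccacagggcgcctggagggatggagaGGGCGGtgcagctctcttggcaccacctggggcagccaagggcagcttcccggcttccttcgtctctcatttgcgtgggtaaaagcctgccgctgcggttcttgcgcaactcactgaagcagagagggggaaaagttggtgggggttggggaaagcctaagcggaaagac

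The motifs were searched on both strands of all 8 windows, and no motif overlapped another in the 4 windows shown. GGGCGG stood in 4 of the 8, Alox5, Ptger4, Ptges and Ptgs2, against 32.7% of 32851 RefSeq windows of the same length. GAGGAA stood in 5, Alox5, Lta4h, Ptges, Ptgs1 and Ptgs2, against 23.3%. In Alox5 the GC box began 35 bases before the annotated start and GAGGAA 136 bases before it, and in Ptgs2 they began 170 and 247 bases before it. TTC followed after 4 bases of any kind by GAA, the form of STAT factor sites, stood in the Ptges window and in 5.85% of all windows. TATAAA and CGTCA stood in none of the 8 windows, against 12.4% and 17.8% of all, and bases outside the windows were not searched. Neither Ltc4s nor Ptger2, which differed in opposite directions between the gates, held any of these letters.

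Between Ly6C high and Ly6C low cells 3 lipoxygenase and leukotriene genes rose and a prostaglandin E2 receptor fell. Alox5 and Ltc4s were higher in low, by 6.90-fold and 3.33-fold. Alox15 was higher by 2.34-fold, a limited figure, since it exceeded the array median on 1 of 3 high arrays. Ptger2 was 3.63-fold lower in low. These 4 of the 9 measured genes passed a limma adjusted p of 0.05, whereas 5.67% of all 22180 genes passed it in this comparison (3.35% higher and 2.32% lower). Ptgs2, Ptges, Ptger4, Alox5ap and Lta4h did not pass. An unadjusted p under 0.05 was reached by 5 of the 9, against 17.9% of all genes. The median log2 difference over the 9 genes was 0.27 and that over all genes 0.01. The count was 2 when high replicate 1, high replicate 3, low replicate 1 or low replicate 2 was left out, since the calls of Ptger2 and Alox15 were lost in each case, and 5 without low replicate 3.

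**Figure D1:**
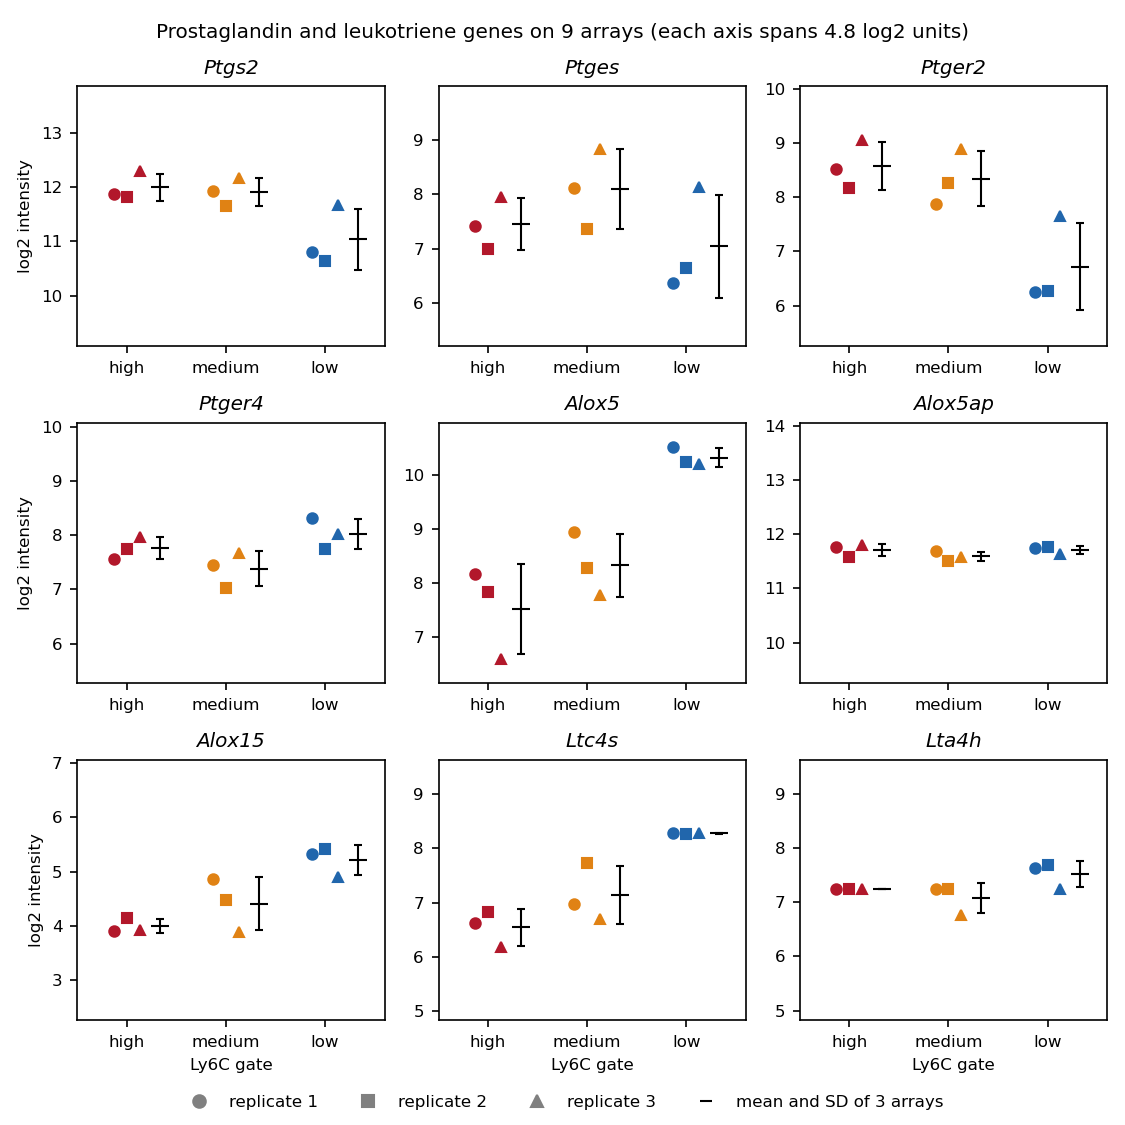
Log2 intensity of the 9 measured genes on each array, by Ly6C gate, with symbols for the replicate number and black bars for the mean and SD of 3 arrays. Every vertical axis spans the same number of log2 units but starts at a different level, since levels of different probe sets are not comparable. Alox5 and Ltc4s sit above the other gates on all low arrays, and for Ptgs2, Ptges and Ptger2 the triangle of replicate 3 is the highest symbol in each gate.

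Alox5 encodes 5-lipoxygenase, the enzyme that commits arachidonic acid to leukotrienes. Its log2 intensity was 8.17, 7.83 and 6.59 on high replicates 1 to 3, 8.94, 8.28 and 7.77 on the medium arrays and 10.51, 10.23 and 10.20 on the low arrays. All low arrays lay above all others, and high and medium overlapped. The order of the gate means was low (10.31 ± 0.17, SD, n = 3), medium (8.33 ± 0.58) and high (7.53 ± 0.83). The low-minus-high log2 difference was 2.79 (SE 0.40, limma adjusted p = 0.00534), and it passed without each array in turn, at up to 0.0284. The low-minus-medium difference was 1.98 (limma adjusted p = 0.0463), which no longer passed after dropping any of 7 single arrays (up to 0.158 with low replicate 1 dropped). Medium and high, next to each other in the order, were not separated (0.80, limma adjusted p = 0.704). The other Alox5 probe set went the same way, with gate means of 5.36, 6.43 and 9.06 in high, medium and low and a low-minus-high difference of 3.70 (limma adjusted p = 0.000574 over all probe sets with 1 symbol).

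Alox5ap encodes the activating protein that presents arachidonic acid to 5-lipoxygenase. It lay at 11.76, 11.58 and 11.79 on the high arrays, 11.68, 11.51 and 11.58 on the medium arrays and 11.75, 11.76 and 11.63 on the low arrays. The gates overlapped throughout, and all 9 values lay close together. Its low-minus-high difference was 0.00 (0.00409, limma adjusted p = 0.993) with a 95% interval of -0.22 to 0.23, or 0.857-fold to 1.17-fold. Its other probe set gave 11.30, 11.32 and 11.34 in high, medium and low.

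Ltc4s encodes the membrane enzyme that couples leukotriene A4 to glutathione. Its values were 6.62, 6.83 and 6.18 in high, 6.98, 7.73 and 6.69 in medium and 8.28, 8.27 and 8.28 in low. The low arrays were nearly identical and lay above every other array, whereas medium and high overlapped. The gate means were 8.27 ± 0.01 (SD, n = 3) in low, 7.13 ± 0.54 in medium and 6.54 ± 0.33 in high. Low exceeded high by 1.73 (SE 0.25, limma adjusted p = 0.00584), a call kept without each array in turn, at up to 0.0279. Low minus medium was 1.14 and did not pass (limma adjusted p = 0.0622), although it passed without medium replicate 2 (0.0209) and when genes under a log2 value of 6 were left out (0.0243).

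Lta4h encodes the hydrolase that makes leukotriene B4 from the same precursor. It lay at 7.24, 7.23 and 7.24 in high, 7.24, 7.24 and 6.76 in medium and 7.63, 7.67 and 7.24 in low. Precisely the same deposited value stood on 5 of the 9 arrays, something seen for 5.17% of all genes, so the SD of 0.000654 in high is no measure of its error. The low-minus-high difference was 0.28 (95% interval -0.09 to 0.64, limma adjusted p = 0.445).

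Alox15 encodes a lipoxygenase of resident macrophages and eosinophils that makes precursors of lipoxins and related mediators. It was dim, at 3.91, 4.15 and 3.92 in high, where 1 of 3 arrays exceeded its own array's median. It reached 4.86, 4.48 and 3.89 in medium and 5.32, 5.42 and 4.91 in low. Low lay above both other gates on all arrays, and medium spanned the range of high and beyond. The low-minus-high difference of 1.22 (SE 0.23, limma adjusted p = 0.0185) no longer passed after dropping any of 4 single arrays (up to 0.0734 with low replicate 2 dropped). The gene did not enter the fit limited to log2 values of at least 6.

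Ptgs2 encodes the inducible cyclooxygenase. Its values were 11.88, 11.82 and 12.29 in high, 11.92, 11.64 and 12.17 in medium and 10.80, 10.64 and 11.68 in low. Every low array lay below every high array, but low replicate 3 was above the lowest medium array. The gate means were 12.00 ± 0.26 (SD, n = 3), 11.91 ± 0.26 and 11.04 ± 0.56. The low-minus-high difference was -0.96 (95% interval -1.56 to -0.35), with a limma adjusted p of 0.0815. Without low replicate 3 it was -1.27 (limma adjusted p = 0.0102), and it also passed when genes under a log2 value of 6 were left out (0.0334).

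Ptges encodes the inducible synthase that works after Ptgs2 to make prostaglandin E2. It had the widest standard error of the 9 genes in the fit (0.51), at 7.42, 6.99 and 7.96 in high, 8.12, 7.36 and 8.84 in medium and 6.36, 6.64 and 8.13 in low. The gates overlapped in every pair. Low minus high was -0.41 (95% interval -1.56 to 0.73, limma adjusted p = 0.788), and the largest of its differences, low minus medium, was -1.06 (limma adjusted p = 0.403).

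Ptger2 and Ptger4 encode the prostaglandin E2 receptors EP2 and EP4, which both raise cyclic AMP in myeloid cells. Ptger2 lay at 8.52, 8.16 and 9.05 in high, 7.87, 8.27 and 8.88 in medium and 6.25, 6.26 and 7.64 in low. All low arrays were below all others, and high and medium overlapped. Its low-minus-high difference was -1.86 (SE 0.41, limma adjusted p = 0.0328). It no longer passed after dropping any of 6 single arrays, up to 0.120 with low replicate 1 dropped, nor at 0.0801 in a fit of the 2 gates alone. Low minus medium was -1.62 (limma adjusted p = 0.0946) and was -2.09 without low replicate 3, where it passed (0.0211).

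Ptger4 passed in no comparison. It lay at 7.56, 7.75 and 7.97 in high, 7.45, 7.03 and 7.67 in medium and 8.31, 7.75 and 8.02 in low. The low arrays were above all medium arrays and overlapped the high ones. Low minus high was 0.27 (95% interval -0.18 to 0.72, limma adjusted p = 0.586), and low minus medium was 0.64 (limma adjusted p = 0.164).

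Few genes of any kind passed between Ly6C medium and Ly6C high cells, so the count of 0 is near the background and says nothing particular about the 9. With limma 0 of 9 passed, 1 had an unadjusted p under 0.05, Ltc4s at 0.0449, and in 0 were the arrays apart. Over all genes 0.239% passed (0.0406% higher and 0.198% lower in medium), 7.53% had an unadjusted p under 0.05 and 10.7% had arrays that did not overlap. Between low and medium 1 gene passed, Alox5, against 1.93% of all genes, and 7 had an unadjusted p under 0.05, against 14.1%. The arrays did not overlap in 5 of 9 genes for low versus medium and in 5 of 9 for low versus high, against 16.8% and 20.1% of all genes. Comparisons that share a gate share its arrays, so these counts are not separate observations.

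**Figure D2:**
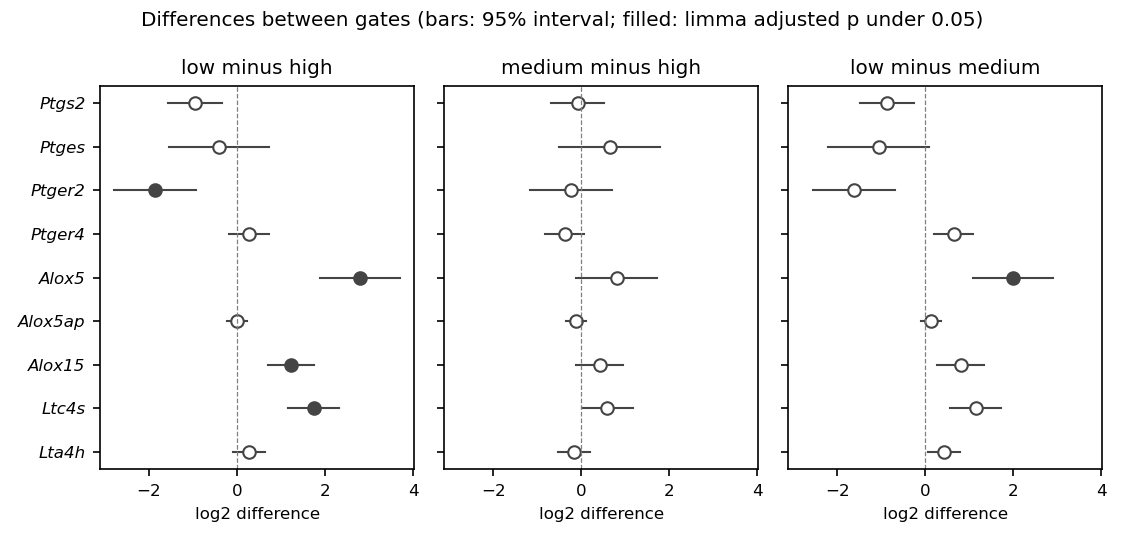
Log2 differences between gates for the 9 genes, with 95% intervals from limma. A filled symbol marks an adjusted p under 0.05, reached by Alox5, Alox15, Ltc4s and Ptger2 for low minus high, by no gene for medium minus high and by Alox5 for low minus medium.

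The replicate number also went with some of these genes. Ptgs2, Ptges and Ptger2 were each highest on replicate 3 in all 3 gates, and Alox5 was lowest there in all 3. Over all genes replicate 3 was highest in every gate for 4.64% and lowest in every gate for 4.92%. On low replicate 3 the classical monocyte markers averaged 8.84, against 8.13 and 8.29 on the other low arrays, and the neutrophil markers 6.07, against 4.94 and 5.29. Their part in the values of these genes was not tested.

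The rest of the eicosanoid pathway was read from a list of 62 further genes, of which 55 were measured. In low versus high, 3 rose and 6 fell, against 3.35% and 2.32% of all genes, and the median log2 difference was -0.05, against 0.01 over all genes. Of the 55 genes, 17 lay at or below the array median on all 9 arrays, among them all 5 other lipoxygenase genes, of which 0 passed in limma and 0 had an unadjusted p under 0.05. The count of 9 was 5 without high replicate 2 and also 5 without low replicate 1. In low versus medium 3 rose and 2 fell, against 1.38% and 0.541% of all genes. In medium versus high 0 of 55 passed in limma and 8 had an unadjusted p under 0.05, where 0.239% and 7.53% of all genes did so.

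The 3 pathway genes that rose in low versus high were Hpgds, Hpgd and Pla2g12a. Hpgds was 1 of 8 prostanoid synthases measured, Hpgd 1 of 5 genes of transport and breakdown, and Pla2g12a 1 of 16 phospholipase genes. Of all genes 3.35% rose. Hpgds, the haematopoietic synthase of prostaglandin D2, lay at 5.65, 5.57 and 5.71 in high, 6.05, 6.58 and 6.03 in medium and 7.95, 8.13 and 7.32 in low. All low arrays stood above all others, and the low-minus-high difference was 2.15 (4.45-fold, limma adjusted p = 0.00126). Hpgd, the dehydrogenase that inactivates prostaglandin E2, was 5.89, 6.47 and 5.57 in high, 6.39, 6.27 and 5.11 in medium and 8.42, 8.59 and 7.78 in low. It was higher in low by 4.87-fold against high (limma adjusted p = 0.00939) and by 5.07-fold against medium (0.0187). The call of Hpgds against medium ended on dropping any of 3 single arrays (up to 0.0547 with medium replicate 3 dropped), and that of Hpgd on dropping any of 2 (up to 0.0825 with low replicate 2 dropped). Pla2g12a, a secreted phospholipase, was 1.94-fold higher in low than medium (limma adjusted p = 0.0102), a call kept under all 19 alternatives run for it. Against high it was higher by 0.60 (limma adjusted p = 0.0276), which ended on dropping any of 5 single arrays (up to 0.0933 with high replicate 3 dropped).

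The receptors that fell in low versus high were 3 of the 12 measured in the list, against 2.32% of all genes. Ltb4r1, the receptor for leukotriene B4, lay at 8.89, 8.64 and 8.77 in high, 8.11, 7.72 and 8.16 in medium and 6.86, 7.38 and 8.16 in low. The high arrays were above all others, and low and medium overlapped through low replicate 3. Low was below high by 2.46-fold (limma adjusted p = 0.0307), which ended on dropping any of 6 single arrays (up to 0.102 with low replicate 2 dropped). Ptgir, the prostacyclin receptor, was 2.05-fold lower (limma adjusted p = 0.00845). Fpr2, a formyl peptide receptor that also binds lipoxin, was lower by 3.85-fold against high (limma adjusted p = 0.00304) and by 3.18-fold against medium (0.0154), the latter ending on dropping any of 3 single arrays (up to 0.0664 with low replicate 2 dropped). Cysltr1, a receptor for cysteinyl leukotrienes, averaged 7.19, 7.22 and 7.12 in high, medium and low (limma adjusted p = 0.914 for low versus high).

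The other genes that fell were Pla2g7, Slco2a1 and Abcc4. Pla2g7, the hydrolase of platelet-activating factor, was lower in low by 1.97-fold against high (limma adjusted p = 0.00188) and by 1.86-fold against medium (0.0071). Slco2a1, the prostaglandin uptake transporter, lay at 8.39, 7.29 and 7.15 in high, 4.91, 5.57 and 5.73 in medium and 6.06, 5.56 and 6.35 in low. Its low-minus-high difference of -1.62 (limma adjusted p = 0.0309) ended on dropping any of 5 single arrays (up to 0.110 with low replicate 2 dropped). Fibroblast markers moved with it over high and medium, averaging 8.19, 7.49 and 6.99 on the high arrays and 5.26 to 5.42 on the medium arrays, and were lower still in low (4.76 to 4.98). The endothelial gene Cdh5 averaged 6.87, 5.41 and 5.87 in high, medium and low, and the endothelial list 4.73 to 5.18, 4.46 to 4.58 and 4.28 to 4.65. The part of either cell type in its values was not tested. Abcc4, an exporter of prostaglandin E2, was lower by 1.77-fold (limma adjusted p = 0.0459), which ended on dropping any of 8 single arrays (up to 0.143 with high replicate 3 dropped).

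Pla2g4a and Tbxas1 did not pass in any comparison. Pla2g4a, the cytosolic phospholipase that frees arachidonic acid, averaged 7.41 ± 0.41 in high (SD, n = 3), 7.54 ± 0.43 in medium and 7.37 ± 0.32 in low (low minus high -0.04, 95% interval -0.65 to 0.57, limma adjusted p = 0.974). It is the neighbour of Ptgs2 among protein-coding genes of the RefSeq annotation. Tbxas1, the thromboxane synthase, averaged 7.69, 8.23 and 8.01 in high, medium and low (limma adjusted p = 0.327 for low versus high), and its high arrays lay below all medium and low arrays.

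**Figure D3:**
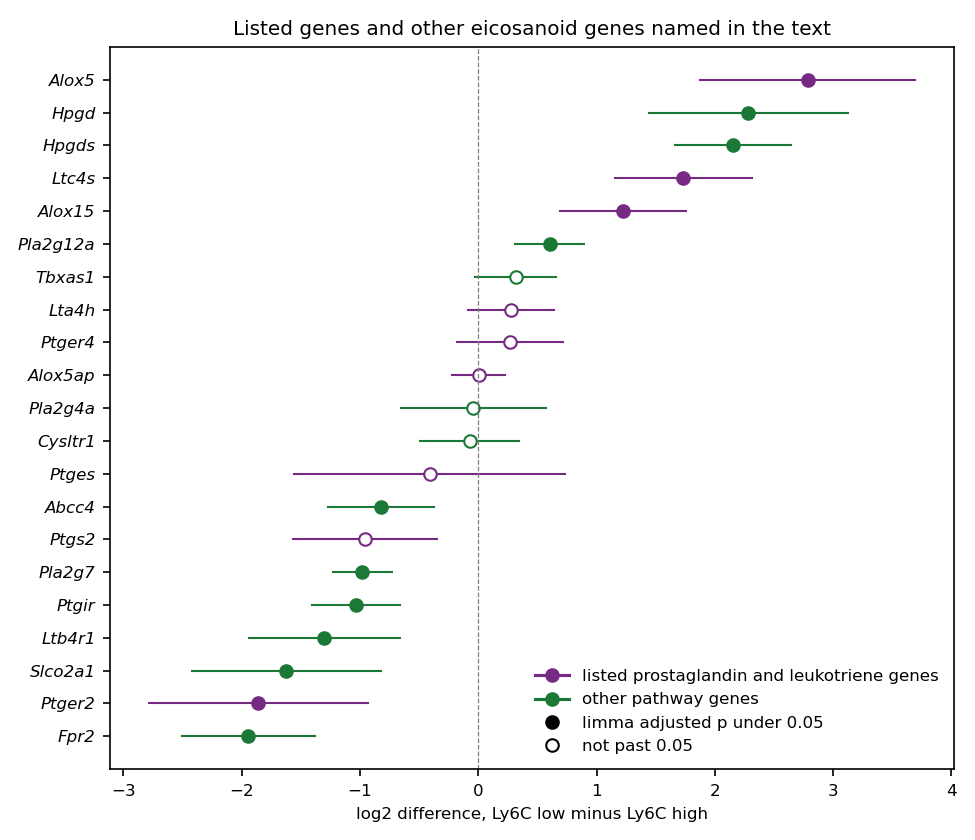
Log2 difference, Ly6C low minus Ly6C high, with 95% intervals from limma for the 9 listed genes (purple) and for 12 other genes of the pathway (green), ordered by size. Filled symbols passed an adjusted p of 0.05, and they run from Fpr2 at -1.94 to Alox5 at 2.79.

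Markers of the cells that could share these gates moved with the same genes. Where Alox5, Ltc4s, Alox15, Hpgds and Hpgd were high, tissue macrophage markers were high too, with 11 of 13 higher in low and list averages of 9.85 to 10.04 in low against 7.63 to 8.03 in high. Dendritic cell markers rose as well, 8 of 15 being higher, from averages of 4.66 to 5.12 in high to 6.68 to 6.97 in low. Of all genes 3.35% were higher in low than in high. Vsig4, a complement receptor of resident macrophages, and Lyve1, a hyaluronan receptor, averaged 7.60 and 11.27 in low against 3.07 and 6.99 in high. Mgl2 and Ccl17, genes of dermal dendritic cells, averaged 8.63 and 7.93 against 3.87 and 3.31. In high, Vsig4 and Ccl17 exceeded the array median on 0 of 3 arrays and Mgl2 on 1 of 3, so no fold is given for them. The part of these cells in the eicosanoid values was not tested.

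Mast cells and eosinophils are known for Ltc4s, Hpgds and Alox5. The averages of their marker lists were low, at most 4.53 on any array, but some markers were not dim. Hdc of the mast cell and basophil list averaged 7.48, 6.62 and 7.19 in high, medium and low. In the same order Cebpe of the eosinophil list averaged 5.70, 5.63 and 5.50. Of 8 eosinophil markers 2 were higher in low, against 3.35% of all genes. They were Prg2 (5.22, 5.70 and 6.36 on the low arrays) and Ccr3 (5.66, 5.06 and 5.87), at 2.87-fold and 2.62-fold. In high, Ccr3 exceeded the array median on 2 of 3 arrays, which limits its fold. The Prg2 call ended on dropping any of 4 single arrays (limma adjusted p up to 0.073 with high replicate 2 dropped). That of Ccr3 ended on dropping low replicate 1 (0.0600). Epx, an eosinophil peroxidase, averaged 3.38 in high and 3.36 in low. It exceeded the array median on 0 of 3 arrays in each gate, so no difference can be read from it. Siglecf did not pass, but its low arrays (4.28 to 4.52) lay above its high arrays (3.74 to 4.09). The list averaged between 3.79 and 3.97 on high, 3.93 and 4.19 on medium and 4.21 and 4.53 on low arrays, and 3 of its genes lay at or below the array median on all arrays. Of 12 mast cell and basophil markers 1 was higher, Kit, against 3.35% of all genes, and 7 lay at or below the array median on all arrays. That list averaged between 3.54 and 3.61 on high, 3.49 and 3.74 on medium and 3.72 and 4.03 on low arrays, and its largest differences, Cpa3 (1.07) and Mcpt4 (0.96), did not pass (limma adjusted p = 0.326 and 0.445). Within the low gate the eosinophil list was highest on replicate 3 (4.53) and the mast cell list on replicate 1 (4.03), where Cpa3 was at 5.85 and Mcpt4 at 4.59. Alox5 was also highest of the low gate on replicate 1 (10.51), and Ltc4s lay at 8.27 to 8.28 on all low arrays. The part of either cell type in these values was not tested.

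Of the genes listed as classical monocyte markers, 8 of 10 were lower in low too, and the largest falls in the list were Cd177 and Ly6c2. Not every eicosanoid gene that fell followed the list over the gates. Slco2a1 averaged 7.61, 5.40 and 5.99 in high, medium and low. Ly6c2 is the transcript of the sorted protein, so its fall was set by the gates. F13a1 of the same list went the other way, at 10.11 in high and 10.99 in low. The list averages, with Ly6c2 included, ran from 10.49 to 10.61 on high, from 9.79 to 9.97 on medium and from 8.13 to 8.84 on low arrays. Fibroblast markers fell too, 10 of 11 being lower in low than in high (Col1a2 23.1-fold and Dpt 16.3-fold) and 7 of 11 in medium than in high. Of all genes 2.32% were lower in low than in high and 0.198% in medium than in high. The part of monocytes and fibroblasts in the eicosanoid values was not tested. Neutrophil markers had 1 of 12 higher (Retnlg, at 6.89 in low and 2.98 in high, where it was under the median of all 3 arrays) and 2 lower, among them Mmp8 (6.89-fold), and the list averaged between 4.68 and 5.18 on high, 5.19 and 5.73 on medium and 4.94 and 6.07 on low arrays. Platelet markers had 1 of 8 higher, Pf4 at 1.75-fold, while Ppbp did not pass (limma adjusted p = 0.78). Of 11 keratinocyte markers 2 were higher, among them Sfn at 2.16-fold, and Krt6a did not pass (limma adjusted p = 0.428). Endothelial markers had 1 of 10 lower, Kdr at 1.82-fold, which ended on dropping any of 5 single arrays (up to 0.105 with low replicate 2 dropped), and Cdh5 did not pass (limma adjusted p = 0.264). Over all genes 3.35% were higher and 2.32% lower in low than in high. In lists this short, 1 or 2 calls are not read as results about the cells.

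**Figure D4:**
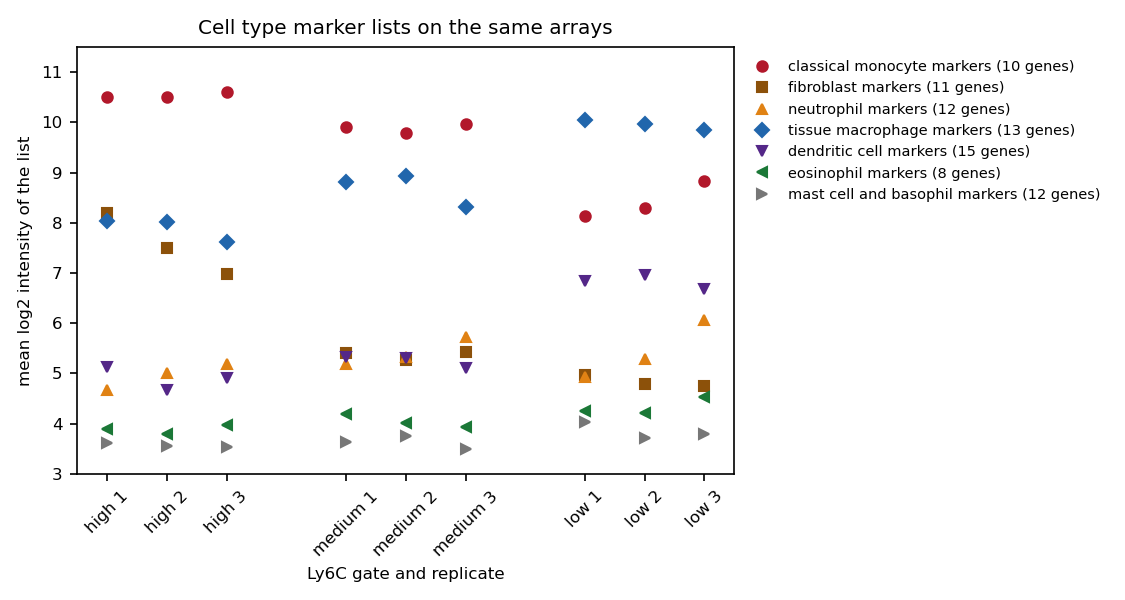
Mean log2 intensity of 7 cell type marker lists on each of the 9 arrays, 1 symbol per array and list. Classical monocyte and fibroblast markers are highest in the high gate and tissue macrophage and dendritic cell markers in the low gate, while eosinophil and mast cell lists reach at most 4.53 on any array.

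Genes with a profile like those of the 4 called genes were found by the root mean square (RMS) difference between their 9 array values, each gene centred on its own mean, among the 5907 genes with a mean log2 value of at least 6. Nearest to Alox5 were Hgsnat, a lysosomal acetyltransferase (RMS 0.33), Fcgrt, the neonatal Fc receptor (0.38), and Cbr2, a carbonyl reductase (0.39). Nearest to Ltc4s were Mtss1 (0.22), the purinergic receptor gene P2ry12 (0.24) and Sesn1 (0.26). For Alox15 they were Nr1d1, a nuclear receptor of the circadian clock (0.16), Arsb, a lysosomal sulfatase (0.18), and Ddx18 (0.20). For Ptger2 they were Ifi205, an interferon-inducible gene (0.23), the arginase gene Arg2 (0.25) and Tarm1 (0.27). Among the pairs of the 9 listed genes the closest were Alox5ap with Lta4h (0.21) and Ptger4 with Alox5ap (0.30). Neither Alox5ap nor Lta4h passed in any comparison. The farthest pair was Alox5 with Ptger2 (2.18). The values were centred but not scaled, so genes that vary little lie close by this measure whatever their pattern. Lta4h held the same value on 5 of the 9 arrays.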

How the data were processed

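RNA from sorted hindpaw cells was amplified and hybridised to Affymetrix arrays, per the labels' protocols. The deposited values are log2 intensities per probe set, made by the authors with RMA per the submitters' processing notes, with version, settings and genome build not given in the sources used here. RMA normalizes between arrays, so a shift of the whole RNA content cannot be seen. Of 41345 probe sets, 23521 had 1 symbol, 1814 had several and 16010 were not named, and the latter groups were left out. All 22180 genes entered one limma 3.58.1 fit (R 4.3.3; lmFit, eBayes, two-sided, 9 arrays, 6 residual degrees of freedom), with Benjamini-Hochberg adjustment over all genes. Array number limits the precision. The genes and lists were chosen with earlier results of these data known. The text names the listed genes, pathway genes past 0.05 and 5 fixed ones, the 2 largest low-minus-high differences per marker list, and the 3 nearest profiles per called gene. Also named are Ly6c2, Itgam and Ly6g, and pathway genes that passed only under alternatives. The markers Epx, Siglecf, Cebpe, Kit, Hdc, F13a1, Xcr1 and Cd209a are named outside these rules. Same-numbered arrays had deviations correlated at -0.02 to 0.31 over genes, above 0.1 in 4 of 9 pairs. The 18 other pairs of arrays from different gates ran from -0.18 to 0.15. The numbers were not taken as pairs, although these values do not exclude pairing. The procedure was tested on simulated data. A protein comparison was not made.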

Additional observations from a re-analysis of the deposited data

How the results depend on the processing

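For low versus high the number of the 9 genes past the threshold ranged from 2 to 5 when an array was left out, and it was 3 to 5 under the other alternatives. For low versus medium it was 1 in the main analysis and ranged from 0 to 2 when an array was left out; it was 2 with array weights, 2 with only genes above the array median, 3 with only genes at log2 6 or more and 4 with a fixed block for replicate numbers. The main analysis did not take these numbers as pairs, although pairing is not excluded. That block also gave 5 genes for low versus high, where Ptgs2 passed (limma adjusted p = 0.0108). As a random block the number changed no count. For medium versus high it was 0 throughout. Among the other pathway genes the counts ranged from 5 to 9 for low versus high and 3 to 5 for low versus medium when an array was left out, and for low versus medium it was 3 in a fit of 2 gates. For low versus high it was 6 in such a fit and 11 under either filter on dim genes, where Prxl2b and Mgst3 (both filters) and Cbr1 (log2 6 or more) passed as higher. For medium versus high 1 gene passed, Slco2a1, under either filter on dim genes (limma adjusted p = 0.0183 and 0.0309) and with a trended and robust prior (0.0457). Fewer genes tested is part of each filter, and the cause of the other changes was not tested. Direction turned in 0 called results. It turned for Alox5ap, low versus high, at -0.028 with arrays centred and -0.021 with quantile normalization repeated. Leaving out single arrays also turned it (-0.061 to 0.045), and turned Pla2g4a (-0.20 to 0.19), Cysltr1 (-0.19 to 0.11) and Ppbp (-0.041 to 0.57), and for medium versus high Ptgs2 (-0.21 to 0.065), Ptger2 (-0.51 to 6.8e-05) and Lta4h (-0.24 to 0.000378). Of 537 values of the 9 genes under alternatives, 495 kept direction and side of the threshold, 18 lost and 15 gained the call. Alox15 sits near the array median in high, which limits its fold.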
